A study of Mus musculus with 20 samples.

Results

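The genes described here are 10 transcriptional targets of the tumour suppressor p53: Cdkn1a, Ccng1, Gadd45a, Bbc3, Tnfrsf10b, Aen, Trp53inp1, Phlda3, Mdm2 and Zmat3. Every probe set of the array whose symbol in the platform annotation was that of a member was taken, which gave 20 of the 45101 probe sets. Of these, 19 passed the detection filter and were among the 25553 probe sets tested, and each of the 10 genes was among the 12025 genes tested. The intensities played no part in how the probe sets were matched to the genes, but the members were chosen with earlier results of these data known.

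In this study 20 pools of CF1 mouse blastocysts, 20 embryos to a pool, were each hybridised to an Affymetrix MOE430 2.0 array with 1 colour, to ask how embryo biopsy at the 8-cell stage and its component steps affect the transcripts of the blastocyst. The 5 groups had 4 pools each, numbered 2 to 5, and all embryos were collected 96 h after injection of the ovulatory hormone hCG. Untreated embryos received none of the steps. CMF embryos were held in medium without calcium and magnesium, which loosens contacts between blastomeres. Acid embryos had the zona pellucida, the coat of the embryo, breached with acid Tyrode's solution. CMF_acid embryos went through both exposures and kept all their cells, and biopsy embryos went through both and then lost a single blastomere. The labels name no genotype beyond the strain, and they give female sex for all pools but 1. Because whole embryos were pooled, fewer cells of a type and less RNA per cell cannot be told apart in any of these values.

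p53 is a transcription factor that is held at a low level by Mdm2, the ubiquitin ligase that marks it for destruction, and that is released from Mdm2 after DNA damage and other stresses. It then binds a paired sequence element near its target genes, whose products stop the cell cycle, start cell death, or feed back on p53 itself. In early mouse embryos the pathway is known for removing damaged or less fit cells around the time the epiblast forms, and suboptimal culture is known to engage it.

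The promoters are shown because letters that match the paired element of p53, or only 1 of its 2 parts, can be found in some of them. A promoter of 250 bases before to 50 bases after the transcription start was found in RefSeq (GRCm38.p6) for 7 of the 10 members, 11 promoters in all. Capitals mark matches on either strand to the p53 half-site consensus, and to the core pair CATGNNNNNNCATG, in which the cores of 2 half-sites stand next to each other. Positions are counted from the base just before the start.
Cdkn1a, chr17:29090729-29091028, plus strand: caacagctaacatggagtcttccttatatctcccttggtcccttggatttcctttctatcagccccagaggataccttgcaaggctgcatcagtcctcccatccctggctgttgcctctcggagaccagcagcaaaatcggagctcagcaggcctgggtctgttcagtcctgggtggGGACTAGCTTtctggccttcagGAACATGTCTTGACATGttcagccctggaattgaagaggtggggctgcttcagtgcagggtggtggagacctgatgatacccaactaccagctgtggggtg
Mdm2, chr10:117710709-117711008, minus strand: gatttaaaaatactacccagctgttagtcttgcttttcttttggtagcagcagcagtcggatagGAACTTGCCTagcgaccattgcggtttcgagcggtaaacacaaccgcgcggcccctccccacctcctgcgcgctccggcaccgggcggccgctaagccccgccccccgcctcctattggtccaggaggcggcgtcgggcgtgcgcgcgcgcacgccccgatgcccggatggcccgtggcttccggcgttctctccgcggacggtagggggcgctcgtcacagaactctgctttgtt
Ccng1, chr11:40755237-40755536, minus strand: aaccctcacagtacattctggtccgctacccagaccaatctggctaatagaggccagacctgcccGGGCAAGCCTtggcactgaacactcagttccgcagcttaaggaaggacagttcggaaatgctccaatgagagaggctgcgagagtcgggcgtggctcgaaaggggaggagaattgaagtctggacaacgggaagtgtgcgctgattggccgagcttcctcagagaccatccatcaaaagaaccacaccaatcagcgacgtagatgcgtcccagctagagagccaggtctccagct
In Cdkn1a the half-sites began 73 and 51 bases before this start, and the core pair began 48 bases before it and overlapped the second half-site. The second promoter of Cdkn1a in the table held neither motif. In Mdm2 the half-site began 186 bases before the start, in Ccng1 185 and in Gadd45a 40. Both overlapping promoters of Aen held the same half-site. At least 1 half-site was present in 6 of the 11 member promoters, and in 2745 of all 32851 promoters of the table, which is 8.36%. The core pair was present in 1 member promoter and in 0.712% of all promoters, and the TATA motif TATAAA in 0 and 13.6%. A match is a description of these letters and says nothing of whether p53 was bound in these embryos.

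On the arrays, between 44.3% and 50.9% of all probe sets were called Present, the software's call that a transcript was detected. The pools showed the lineages of the blastocyst: of the markers checked, all 6 of the epiblast and inner cell mass, 5 of 6 of the trophectoderm and 4 of 6 of the primitive endoderm were Present on all 20 arrays. Of 8 markers of cumulus and granulosa cells, 2 were tested. Amhr2 was Present on all 20 arrays with a mean of 9.45 log2, and Foxl2 was Present on 8 with a mean of 2.40 log2. Amh, Fshr, Cyp19a1, Inhba, Has2 and Ptx3 were not tested. CMF_acid replicate 5 stood apart, with the lowest share of Present calls, an actin 3' to 5' ratio of 4.22 and a median of 7.55 over the tested probe sets. The members' differences for its group are given with and without it. None of the labels states that pools came from separate collections, so the spread between arrays may in part be technical.

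None of the 19 tested probe sets of the p53 targets was called in any comparison. A call was an adjusted p under 0.05 in limma, with 5 group means fitted to all 20 arrays and p-values adjusted over all 25553 probe sets. The share of all tested probe sets called was also 0% in each comparison. At an unadjusted p under 0.05, 1 member probe set passed in biopsy against untreated (2.09% of all tested), 2 in CMF (1.01%), 2 in acid (1.16%) and 0 in CMF_acid (2.67%). None passed in biopsy against CMF_acid (7.36%), 2 passed in the CMF by acid interaction (3.4%), 1 in the mean of the 4 treatments against untreated (0.92%) and 1 in the F test over the 5 groups (1.81%). Those passing belonged to Tnfrsf10b, a death receptor, except for 1 of Trp53inp1, a stress-induced cofactor of p53, in CMF. Except in the F test, 1 probe set of each count above 0 was the second one of Tnfrsf10b, which was called Present on 4 of 20 arrays. The 4 comparisons with untreated embryos share the same 4 untreated arrays.

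In none of the 5 pairs of groups compared did any of the 19 member probe sets have arrays that did not overlap. Among all tested probe sets, the biopsy arrays were all above the untreated arrays in 1.74% and all below in 0.43%. The same shares were 0.415% and 0.947% for CMF, 0.419% and 0.485% for acid, and 0.505% and 0.239% for CMF_acid. For biopsy against CMF_acid they were 1.51% and 0.665%.

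**Figure D1:**
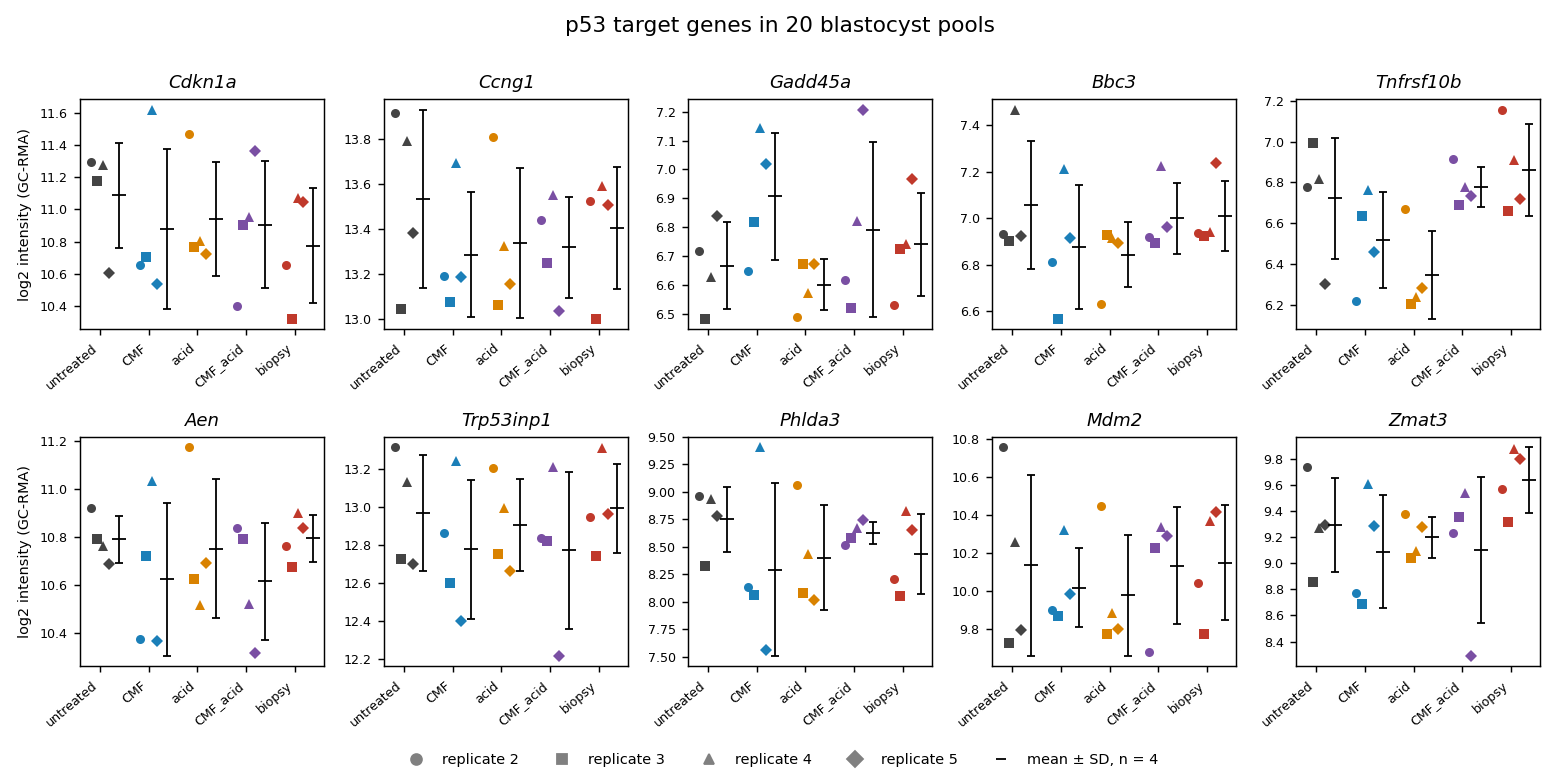
Log2 intensity (GC-RMA) of 10 p53 target genes, 1 panel per gene, in the 4 arrays of each of 5 groups, with a marker shape for each replicate number. Black bars are mean and SD, n = 4. In every panel each treatment overlaps the untreated arrays and biopsy overlaps CMF_acid, and the vertical axes differ between panels and do not start at 0.

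Among the genes that halt the cell cycle, Cdkn1a encodes p21, an inhibitor of cyclin-dependent kinases and the classic reporter of p53 activity. Its log2 intensity was 11.29, 11.18, 11.28 and 10.60 in untreated replicates 2 to 5. In the same order it was 10.65, 10.70, 11.62 and 10.54 in CMF and 11.47, 10.76, 10.80 and 10.72 in acid. It was 10.40, 10.90, 10.95 and 11.36 in CMF_acid, and 10.65, 10.32, 11.07 and 11.05 in biopsy. A single array stood high in CMF and in acid, a single array stood low in untreated, and the groups overlapped. The means were 11.09 ± 0.33 in untreated and 10.77 ± 0.36 in biopsy (SD, n = 4), a difference of -0.32 with a 95% interval of -0.88 to 0.25. Without biopsy replicate 3 it was -0.16 and without untreated replicate 5 it was -0.48. The other differences from untreated were -0.21 in CMF, -0.15 in acid and -0.19 in CMF_acid. That of CMF ran from -0.46 without CMF replicate 4 to -0.10 without CMF replicate 5. That of acid was -0.33 without acid replicate 2, -0.08 without acid replicate 5 and 0.04 in the array software's own signal. That of CMF_acid was -0.34 without CMF_acid replicate 5 and -0.02 without CMF_acid replicate 2. A second probe set of Cdkn1a was also lower than untreated in all 4 treatments.

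Ccng1, cyclin G1, is a p53 target that recruits a phosphatase to Mdm2. Its log2 intensity was 13.92, 13.04, 13.79 and 13.38 in untreated replicates 2 to 5. It was 13.52, 13.00, 13.59 and 13.50 in biopsy. In both groups replicate 3 was the lowest array, and the ranges overlapped. The means were 13.53 ± 0.40 in untreated and 13.40 ± 0.27 in biopsy (SD, n = 4), with those of CMF (13.29 ± 0.28), CMF_acid (13.32 ± 0.23) and acid (13.34 ± 0.33) a little below. All 3 probe sets of Ccng1 were lower than untreated in each treatment, and for the probe set with the highest mean the 95% interval in CMF ran from -0.69 to 0.19. Without biopsy replicate 3 the biopsy difference of that probe set was 0.01 in place of -0.13, and without CMF_acid replicate 5 the CMF_acid difference was -0.12 in place of -0.21. With untreated replicate 3 left out the differences were larger, at -0.41 in CMF, and with untreated replicate 2 left out they were smaller, at -0.12 in CMF.

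Gadd45a, a stress-induced protein of growth arrest and DNA repair, had a higher mean in CMF than in untreated embryos, unlike most members. Its CMF arrays were at 6.65, 6.82, 7.14 and 7.02 in replicates 2 to 5, and its untreated arrays at 6.72, 6.48, 6.63 and 6.84. The difference was 0.24 ± 0.14 log2 (SE, n = 4) with an interval of -0.05 to 0.53, and the groups overlapped. In acid the difference was -0.07, in biopsy 0.07, and in CMF_acid 0.12, which was -0.06 in the software signal. The CMF_acid difference was -0.01 without CMF_acid replicate 5, and the biopsy difference was -0.00 without biopsy replicate 5.

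Among the genes of cell death, Tnfrsf10b encodes the receptor for the death ligand TRAIL. Its log2 intensity was 6.78, 6.99, 6.82 and 6.30 in untreated replicates 2 to 5. It was 6.22, 6.64, 6.76 and 6.46 in CMF, and 6.67, 6.21, 6.24 and 6.28 in acid. With both exposures and no biopsy the arrays were close together, at 6.91, 6.69, 6.78 and 6.73. In biopsy they stood at 7.16, 6.66, 6.91 and 6.72, as far apart as in acid or CMF. The acid arrays were thus low except for replicate 2, while the untreated arrays were high except for replicate 5, and these groups overlapped.

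The acid mean of Tnfrsf10b was 6.35 ± 0.22 and the untreated mean 6.72 ± 0.29 (SD, n = 4). The difference was -0.37 ± 0.15 log2 (SE), with a 95% interval of -0.69 to -0.05 and an adjusted p of 0.9999 in limma. With single arrays left out it ranged from -0.51 without untreated replicate 5 to -0.28 without untreated replicate 3. CMF alone differed from untreated by -0.20, with a range of -0.34 to -0.10 over single arrays left out. CMF_acid differed by 0.05, or by 0.07 without its replicate 5 and -0.08 without untreated replicate 5. Biopsy differed by 0.14, by -0.06 in the software signal and by -0.00 without untreated replicate 5. The interaction, which is CMF_acid minus CMF minus acid plus untreated, was 0.63 ± 0.22 log2 (SE, n = 4 per group). Its interval was 0.18 to 1.09 and its adjusted p 0.779 in limma, so it was not called. In the software signal it was 0.76, and without CMF_acid replicate 5 it was 0.65. The second probe set of the gene was Present on 4 of 20 arrays, none of them CMF or acid, so no size or direction is given for it.

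**Figure D2:**
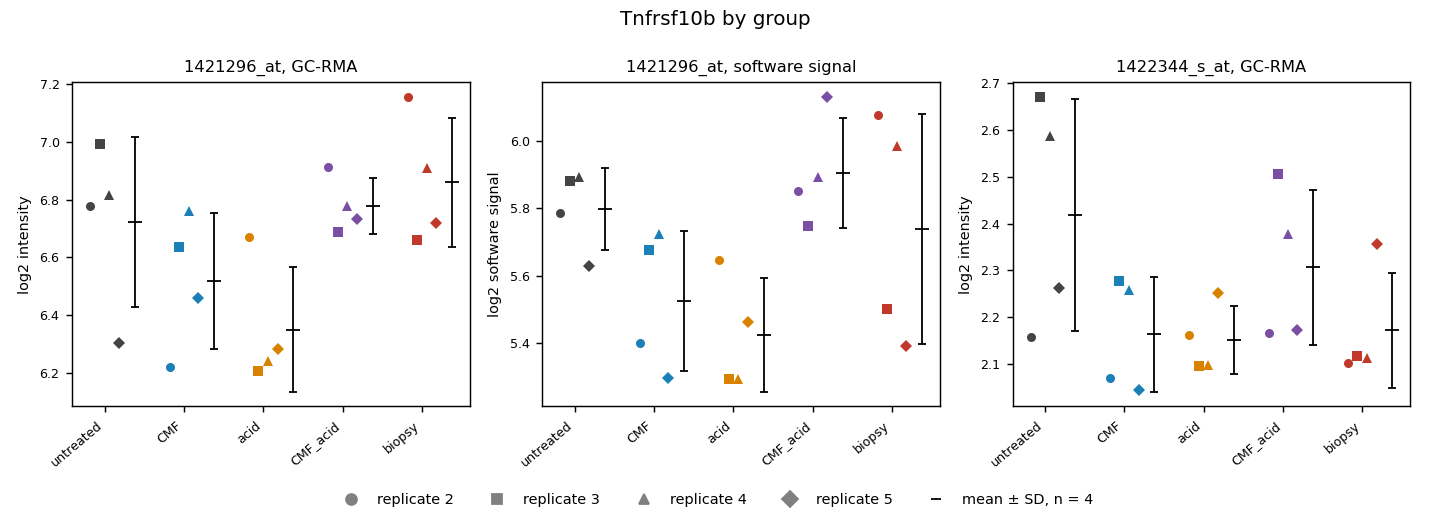
Tnfrsf10b in the 4 arrays of each of 5 groups: log2 intensity and log2 software signal of the probe set with the highest mean, and log2 intensity of the second probe set. Black bars are mean and SD, n = 4, the vertical axes differ and do not start at 0; in the first panel the acid mean is 6.35 and the CMF_acid mean 6.78.

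Bbc3, which encodes the killer protein PUMA, was at 6.93, 6.90, 7.47 and 6.92 in untreated replicates 2 to 5 and at 6.63, 6.93, 6.92 and 6.89 in acid. Replicate 4 of untreated stood high and replicate 2 of acid low, and the remaining arrays of both groups lay close together. The group means ran from 6.84 ± 0.14 in acid to 7.06 ± 0.27 in untreated (SD, n = 4). All 4 treatments were below untreated, with differences from -0.05 in biopsy to -0.21 in acid, except that CMF_acid was at 0.02 in the software signal, and each interval held 0. Without untreated replicate 4, biopsy was at 0.09, CMF_acid at 0.08, CMF at -0.04 and acid at -0.08. Without CMF_acid replicate 5, CMF_acid was at -0.04 in place of -0.06.

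Aen, a nuclease that cuts DNA in dying cells, had 4 tested probe sets that did not share a sign. The one with the highest mean was at 10.79 ± 0.10 in both untreated and biopsy (SD, n = 4), and the interval of that difference was -0.33 to 0.34. It was at 10.62 ± 0.32 in CMF, 10.75 ± 0.29 in acid and 10.62 ± 0.24 in CMF_acid. The CMF_acid difference from untreated was -0.17, and -0.07 without CMF_acid replicate 5. In CMF, acid and biopsy 2 of the 4 probe sets were higher than untreated and 2 lower. The probe set with the lowest mean, 2.35, was Present on 11 of 20 arrays and counted among the lower ones in each. In acid its difference was -0.0047, and that of another probe set was 0.0017, so these signs carry little.

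Trp53inp1 encodes a nuclear protein that helps p53 turn on its death targets. Its log2 intensity was 13.31, 12.72, 13.13 and 12.70 in untreated replicates 2 to 5. It was 12.86, 12.60, 13.24 and 12.40 in CMF, 13.20, 12.76, 12.99 and 12.66 in acid, and 12.95, 12.74, 13.31 and 12.97 in biopsy. In CMF_acid it was 12.83, 12.82, 13.21 and 12.22, the last being the lowest of all 20 arrays. Replicate 4 was the highest array in CMF, CMF_acid and biopsy and replicate 2 in untreated and acid, while replicate 5 or 3 was the lowest in each group, and all groups overlapped. Biopsy differed from untreated by 0.02, with an interval of -0.43 to 0.48, and by -0.02 with the arrays centred on their medians. CMF_acid differed by -0.20, and by -0.01 without CMF_acid replicate 5. A second probe set differed by -0.40 ± 0.17 log2 in CMF (SE, n = 4; interval -0.77 to -0.04), against -0.19 in the first, and neither was called.

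Phlda3 encodes a protein that keeps the survival kinase Akt off the membrane. Its log2 intensity was 8.96, 8.32, 8.93 and 8.78 in untreated replicates 2 to 5, and 8.13, 8.06, 9.41 and 7.56 in CMF. It was 9.06, 8.08, 8.43 and 8.02 in acid, 8.52, 8.58, 8.67 and 8.75 in CMF_acid, and 8.20, 8.05, 8.83 and 8.66 in biopsy. The CMF arrays held both the highest and the lowest value of the 20, around a mean of 8.29 ± 0.79 (SD, n = 4), and so spanned the arrays of every other group. CMF differed from untreated by -0.46 ± 0.31 log2 (SE), by -0.83 without CMF replicate 4 and by -0.22 without CMF replicate 5. The CMF by acid interaction was 0.69 ± 0.44, with an interval of -0.25 to 1.63. It was 1.06 without CMF replicate 4, 0.45 without CMF replicate 5 and 0.65 without CMF_acid replicate 5. Biopsy differed from untreated by -0.32, and by -0.19 without biopsy replicate 3. CMF_acid differed by -0.12, and by -0.16 without CMF_acid replicate 5.

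Of the genes that feed back on p53, Mdm2 had 2 tested probe sets, and one more was Present on 1 array and not tested. The first was at 10.76, 9.73, 10.26 and 9.80 in untreated replicates 2 to 5 and at 10.04, 9.78, 10.37 and 10.42 in biopsy. The untreated arrays spanned those of biopsy on both sides. Biopsy differed from untreated by 0.01 and CMF_acid by -0.00, with intervals of -0.46 to 0.49 and -0.48 to 0.48, and with the arrays centred on their medians these were -0.03 and 0.04. Without untreated replicate 2 they were 0.22 and 0.20, and without CMF_acid replicate 5 the difference of CMF_acid was -0.05. In the second probe set CMF_acid replicate 5 was at 7.61, where the other arrays of the group were at 9.70, 9.60 and 9.58.

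Zmat3 encodes a zinc finger protein that binds RNA, p53 messenger RNA included. Its log2 intensity was 9.74, 8.86, 9.27 and 9.29 in untreated replicates 2 to 5, and 9.57, 9.32, 9.87 and 9.80 in biopsy. It was 8.77, 8.69, 9.61 and 9.28 in CMF, 9.38, 9.04, 9.10 and 9.28 in acid, and 9.23, 9.35, 9.54 and 8.29 in CMF_acid. Biopsy had the highest group mean, 9.64 ± 0.25 (SD, n = 4), and its arrays overlapped those of untreated and of CMF_acid. The difference was 0.35 ± 0.26 log2 from untreated (SE; interval -0.20 to 0.89) and 0.54 ± 0.26 from CMF_acid (interval -0.01 to 1.08, adjusted p = 0.617 in limma). The first of these was 0.20 without untreated replicate 3, and the second was 0.26 without CMF_acid replicate 5. CMF_acid differed from untreated by -0.19, and by 0.08 without CMF_acid replicate 5.

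Read as a list, with the probe set of highest mean for each gene, the p53 targets lay mostly below untreated after either exposure or both. After biopsy they lay on both sides of it, with a count that changed with the processing and with single arrays left out. In acid 10 of 10 members were lower, where 50.6% of all genes were, with a median of -0.15 log2 against -0.00 over all genes. Without untreated replicate 2 the count was 6 of 10 and the median -0.06, without untreated replicate 5 the median was -0.25, and in the software signal the count was 8. In CMF 9 of 10 were lower, where 46.7% of all genes were, with a median of -0.20 against 0.01. That median was -0.33 without CMF replicate 4 and -0.12 without CMF replicate 2 or untreated replicate 2. In CMF_acid 8 were lower (47.5% of all genes), with a median of -0.15, and without CMF_acid replicate 5 the count was again 8 and the median -0.05. Without CMF_acid replicate 2 the median was -0.06. These counts come from genes measured in the same arrays, and no test was made of them. The members were also chosen with earlier results of these data known.

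After biopsy 4 of 10 members were lower than untreated, where 40.9% of all genes were, with a median of 0.01 against 0.01. This count was 7 in the software signal and 7 with the arrays centred on their medians, 7 without biopsy replicate 4 or 5, and 6 or 8 without untreated replicate 3 or 5. Against CMF_acid 3 of 10 were lower after biopsy (50.5% of all genes), with a median of 0.05 against -0.00, and 6 were with the arrays centred. That count was 5 without biopsy replicate 5 or without CMF_acid replicate 2. Without CMF_acid replicate 5 it was again 3, with a median of 0.05, though 4 of the 10 differences had the other sign. In the interaction 1 of 10 was lower, where 53.2% of all genes were, with a median of 0.20 against -0.02. That median was 0.28 without CMF_acid replicate 5, and it ran from 0.08 without untreated replicate 2 to 0.37 without CMF replicate 4. The interaction count ranged from 0 to 4 with single arrays left out, and it was 4 without untreated replicate 2. Over the 4 treatments together 9 of 10 were lower than untreated (44.1% of all genes), with a median of -0.10 against 0.00, and 6 were without untreated replicate 2. That median ran from -0.19 without untreated replicate 5 to -0.06 without untreated replicate 4.

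**Figure D3:**
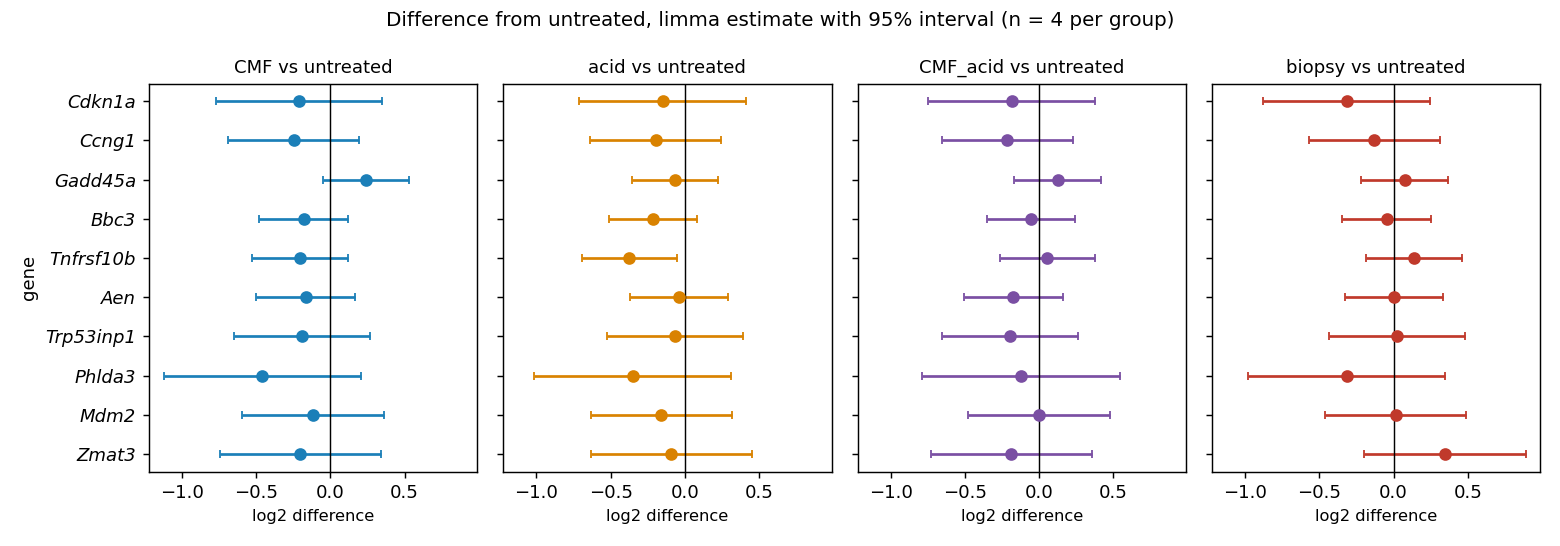
Log2 difference from untreated of 10 p53 target genes in each of the 4 treatments, as limma estimates (points) with 95% intervals (bars), 4 arrays per group, the same untreated arrays in all 4 panels. The bars cross 0 except for Tnfrsf10b in acid, whose interval is -0.69 to -0.05 and whose adjusted p is 0.9999.

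Arrays of the same group differed widely in these genes. Within groups the SD was 0.46 log2 for Phlda3, above that of 93.9% of tested probe sets, 0.39 for Cdkn1a (above 88.6%) and 0.38 for Zmat3 (above 87.3%). The median over all tested probe sets was 0.20, and Gadd45a and Bbc3 lay at that level, with 0.20 and 0.21. Set against its own mean over 20 arrays, each gene gave a deviation per array, and the median of the 10 deviations ran from -0.25 in CMF replicate 3 to 0.41 in untreated replicate 2. All 10 genes were above their means in CMF replicate 4 and in biopsy replicate 5, and all 10 were below them in CMF replicate 2 and in acid replicate 3. Averaged over a group, this median was highest in untreated, at 0.10 ± 0.25, followed by biopsy at 0.08 ± 0.14 and CMF_acid at 0.05 ± 0.09, and lowest in acid at -0.05 ± 0.26 and CMF at -0.08 ± 0.28 (SD, n = 4). The group means lay closer together than 1 SD of the arrays within untreated, CMF or acid.

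**Figure D4:**
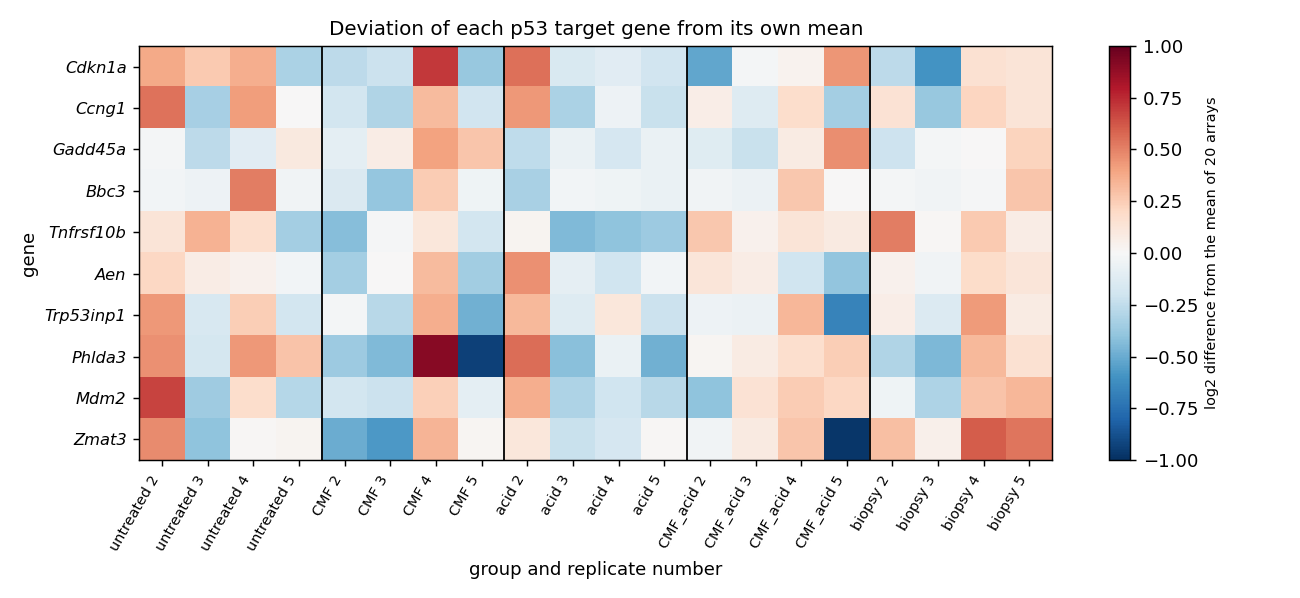
Log2 deviation of each p53 target gene (vertical axis) from its own mean over 20 arrays, by group and replicate number (horizontal axis), with the colour scale from blue below to red above the mean. Columns such as CMF replicate 4 and untreated replicate 2 are mostly above the mean, and CMF replicate 2 and acid replicate 3 are below it throughout.

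Arrays with the same replicate number in different groups had like deviations for part of the members, a pattern chosen for description after the values were seen. The labels do not say what the number stands for. With group in the model, 1 of 19 member probe sets differed among replicate numbers in limma's F test, where 4.13% of all tested probe sets did. This was Trp53inp1 (adjusted p = 0.0281), with mean deviations of 0.15, -0.15, 0.30 and -0.29 log2 for replicates 2 to 5. Ccng1 had 0.20, -0.29, 0.21 and -0.12, with an adjusted p of 0.0521. At an unadjusted p under 0.05, 4 of 19 passed, beside 21.1% of all tested probe sets, so the members' share was near the background.

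Other genes of the p53 pathway gave 0 calls in the same limma fit. Of 25 listed regulators of p53, 22 were tested, and so were 10 of 13 further targets of cell death, 12 of 15 of arrest and growth control, 9 of 10 of metabolism and 8 of 8 of DNA repair. Genes listed and not tested here were not analysed further. In biopsy against untreated 13 of the 22 regulators were higher and 9 lower, which is 40.9% lower, as over all genes. The 1 regulator that passed at an unadjusted p under 0.05, as 2.09% of all tested probe sets did, was Trp53bp1, a p53-binding protein of DNA break repair, with 0.15 ± 0.06 log2 (SE, n = 4). Of the further targets 7 of 10 of cell death, 8 of 12 of arrest, 4 of 9 of metabolism and 2 of 8 of DNA repair were lower. Of these Dram1, a regulator of autophagy, had -0.55 ± 0.23.

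In acid, where 50.6% of all genes were lower, so were 12 of 22 regulators, 6 of 10 further targets of cell death, 10 of 12 of arrest, 8 of 9 of metabolism and 5 of 8 of DNA repair. Ddit4, an inhibitor of mTOR signalling, had -0.66 ± 0.33 there and 0.49 ± 0.33 in biopsy against untreated (SE, n = 4). Neither passed at an unadjusted p under 0.05 in limma. In CMF, where 46.7% of all genes were lower, the counts in the same order were 11, 7, 7, 8 and 3. In CMF_acid, with 47.5% of all genes lower, they were 14, 9, 6, 5 and 4. Pmaip1, which encodes the killer protein NOXA, had -0.91 ± 0.56 in CMF_acid and did not pass at that unadjusted threshold either. In biopsy against CMF_acid, with 50.5% of all genes lower, the counts were 7, 4, 5, 5 and 4. At an unadjusted p under 0.05 in limma, as 7.36% of all tested probe sets had there, these lists held genes on both sides. Higher in biopsy were the regulators Trp53bp1, with 0.19 ± 0.06, and Crebbp, a coactivator that acetylates p53, with 0.44 ± 0.15. So were Perp, a membrane protein of desmosomes and cell death, with 0.33 ± 0.12, and Rrm2b, a subunit of ribonucleotide reductase, with 0.37 ± 0.16. Psrc1, of the arrest list, was lower, with -0.35 ± 0.16. None of these values passed the adjusted threshold. In the CMF by acid interaction, with 53.2% of all genes lower, the counts in the same order were 14, 5, 4, 2 and 4. The counts and values of CMF_acid, of biopsy against CMF_acid and of the interaction include CMF_acid replicate 5 and are not given without it.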

How the data were processed

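RNA from 20 pools of mouse blastocysts, 5 groups of 4, was hybridised to 1-colour arrays. The intensity values used for the main results are those the authors deposited in the series table, made with GC-RMA in ArrayAssist Lite 3.4, per the series design text. They are on the linear scale, and log2 was taken here. Each array's own deposited table adds a software signal, a call of detection and its p-value, made by the authors' array software, per the file headers; the software's version was not given in the sources.

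Tested were the probe sets Present on 3 or more of the 20 arrays, as in the design text, without the 64 controls. Genes were named from probe sets with 1 symbol in the platform annotation (34958), updated through the gene number for 34754. A gene with several tested probe sets was represented by the one with the highest mean over 20 arrays, and probe sets and genes were not set against each other in level. limma 3.58.1 in R 4.3.3 was fitted to log2 values with 5 group means, two-sided, with Benjamini-Hochberg adjustment over 25553 probe sets within each of 7 comparisons. The script was tested on simulated data. The number of arrays, 4 per group, limits the precision.

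All members were named, and of the other pathway lists those past the threshold or otherwise at most 2 genes of lowest unadjusted p per list and comparison. The members and the lists were chosen with earlier results of these data known. Alternatives were the software signal, other detection filters, arrays centred on their medians, a replicate block, the arrays of the compared groups alone, the mean over a gene's probe sets, and each array left out in turn.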

Additional observations from a re-analysis of the deposited data

Results flagged for a closer look

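Within groups of 4 arrays, a single array stood far from the other 3 in 9 of the 50 combinations of gene and group, by Dixon's ratio of gap to range. Chance gives about 1 in 20 for independent combinations. The genes were read on the same arrays, so the 50 are not independent and no excess over chance can be read from the count. Of the 9, 4 were in acid replicate 2. Cdkn1a was at 11.47 there against 10.72 to 10.80 in the other acid arrays, Mdm2 at 10.45 against 9.78 to 9.89, and Tnfrsf10b at 6.67 against 6.21 to 6.28. Bbc3 was low in the same array, at 6.63 against 6.89 to 6.93. In untreated embryos Cdkn1a was at 10.60 in replicate 5 against 11.18 to 11.29, and Bbc3 at 7.47 in replicate 4 against 6.90 to 6.93. CMF replicate 4 had Cdkn1a at 11.62 against 10.54 to 10.70. In biopsied embryos Ccng1 was at 13.0 in replicate 3 against 13.50 to 13.59, and Bbc3 at 7.24 in replicate 5 against 6.92 to 6.94.

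The third probe set of Mdm2 was not tested, since it was called Present on 1 array, biopsy replicate 4, and on none of the untreated arrays. Its log2 intensity there was 2.22, and the highest untreated array was also at 2.22.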

How the results depend on the processing

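None of the member probe sets was called under any alternative in any comparison. The number of all probe sets called ranged from 0 to 1 with single arrays left out in each comparison with untreated embryos, in the interaction, in the mean of the 4 treatments and in the F test. The single call came without untreated replicate 5 in each of these, and also without CMF_acid replicate 4 and without acid replicate 5 in the comparison of that group. With a replicate block the count of calls was 0 in every comparison, as without it. Same-numbered arrays of different groups correlated in their deviations with r from -0.09 to 0.40, and 30 of 40 pairs were over 0.1. Their median r was 0.20, against -0.07 for differently numbered pairs. The labels state no pairing, so the main fit left the number out. Any difference between replicate numbers therefore stays in the spread behind its intervals and p-values. All 20 arrays had their closest array of another group under their own number, which is a hint from the data and not from the design.

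The median difference of the members was recomputed 188 times and changed sign 9 times, in biopsy against untreated or against CMF_acid, always by less than 1 SD between replicates. It ranged from -0.08 to 0.07 in biopsy, -0.33 to -0.12 in CMF, -0.25 to -0.06 in acid, -0.16 to -0.05 in CMF_acid, -0.03 to 0.15 in biopsy against CMF_acid, 0.08 to 0.37 in the interaction and -0.19 to -0.06 in the mean of the 4 treatments. The SD between replicates was 0.22 log2, larger in size than each main median, so a median could reach 0 within it. Of 410 recomputed differences of single members, 19 changed sign, and of 1400 with an array left out, 67 did. The software signal moved 3 of them by more than the spread between replicates: Tnfrsf10b in biopsy against CMF_acid to -0.17, and in the interaction Gadd45a to -0.38 and Bbc3 to 0.78. The cause was not tested.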
